A study of Homo sapiens with 6 samples.

Results

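The genes described are PDE10A and 9 other genes of the cyclic nucleotide phosphodiesterase family, PDE3A, PDE3B, PDE4A, PDE4B, PDE4D, PDE5A, PDE7A, PDE8A and PDE1C, which are 10 of the 24 family genes and of 64253 genes in the count table. They were taken by symbol from a list that was drawn up with the difference in CPM (gene counts relative to library size, scaled between libraries with TMM) between the groups known, and PDE10A stands first because of that difference. The values below are therefore a description of these genes and carry no test of them. Poly(A) RNA was sequenced in 3 libraries of MTSS1-overexpressing NCI-H1299 cells, a human lung cancer line, and in 3 libraries of wild type NCI-H1299 cells grown in the same medium with 5% fetal bovine serum. The overexpressing cells carried an mCherry-tagged MTSS1 plasmid, were kept under hygromycin and were sorted by flow cytometry, and the labels mention HEK293T in connection with the transfection. Cells given an empty or control plasmid are not among the libraries, so MTSS1, tag, selection and sorting cannot be told apart, and the labels do not say whether the overexpressing line was 1 clone or whether replicates were separate cultures.

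Cyclic AMP and cyclic GMP carry signals from receptors and nitric oxide to protein kinases, exchange factors and channels, and phosphodiesterases end those signals by hydrolysing the cyclic nucleotides. The families differ in substrate: PDE4, PDE7 and PDE8 act on cyclic AMP, PDE5, PDE6 and PDE9 on cyclic GMP, and PDE1, PDE2, PDE3, PDE10 and PDE11 on both. PDE10A is best known from the medium spiny neurons of the striatum, where it is very abundant, and PDE4 enzymes are the main cyclic AMP hydrolases of many epithelial and immune cells.

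The libraries held 13883380 to 25741708 counts in overexpressing cells and 19018751 to 29479453 in wild type cells. MTSS1 stood at 544 to 568 CPM in overexpressing cells and at 18.0 to 24.3 CPM in wild type cells, in accord with the labels. Replicate 1 of both groups stood apart from the other 4 libraries on the first principal component (34.8% of the variance). On the second (32.9%) the groups stood apart, with overexpressing libraries at 16.9 to 40.15 and wild type libraries at -32.17 to -22.72. Of the markers of lung adenocarcinoma, SFTPB was at 0 counts and NKX2-1, NAPSA and SFTPC together reached at most 3.16 CPM in overexpressing cells and 1.75 CPM in wild type cells, while the mesenchymal marker VIM stood at 4570 to 4810 CPM in overexpressing cells and 4260 to 4470 CPM in wild type cells. The summed level of 4 genes listed as HEK293T candidates was 188 to 248 CPM in overexpressing cells and 272 to 326 CPM in wild type cells, nearly all of it LIN28B, and PAX2 had at most 5 counts in any library; a part of HEK293T cells in the results was not tested. The epithelial markers EPCAM, CDH1, KRT8 and KRT18 summed to 254 to 466 CPM in overexpressing cells and 569 to 850 CPM in wild type cells, all but a small part from KRT8 and KRT18, with CDH1 at no more than 4 counts in any library; their part in the results was not tested. Leukocyte and endothelial markers summed to at most 1.61 CPM in overexpressing cells and 2.44 CPM in wild type cells.

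PDE10A (ENSG00000112541, chromosome 6, 165327287 to 165988078, minus strand, GRCh38) is shown first with the sequence of 2 promoter windows, because its level differed most between the groups. RefSeq lists these 2 windows, from 250 bases before to 50 bases after an annotated start (GRCh38.p14), both on the minus strand. They lie inside the gene span above, and neither lies at 165988078, where that span starts on this strand. Which start the counted transcripts used was not tested. Capitals mark GC boxes (GGGCGG on either strand). The window of PDE4A with a cyclic AMP response element is printed beside them because that element is the classical binding site of CREB, the transcription factor that cyclic AMP activates. In it, capitals mark the core motif TGACG on either strand, and the full element TGACGTCA is a pair of overlapping core motifs.
PDE10A, chr6:165663192-165663491: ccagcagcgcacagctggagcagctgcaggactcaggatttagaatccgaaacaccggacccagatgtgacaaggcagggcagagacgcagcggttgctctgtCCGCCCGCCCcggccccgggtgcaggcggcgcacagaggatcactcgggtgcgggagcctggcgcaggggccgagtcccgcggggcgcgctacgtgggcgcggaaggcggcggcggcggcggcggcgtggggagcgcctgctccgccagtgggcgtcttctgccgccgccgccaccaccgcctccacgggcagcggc
PDE10A, chr6:165662231-165662530: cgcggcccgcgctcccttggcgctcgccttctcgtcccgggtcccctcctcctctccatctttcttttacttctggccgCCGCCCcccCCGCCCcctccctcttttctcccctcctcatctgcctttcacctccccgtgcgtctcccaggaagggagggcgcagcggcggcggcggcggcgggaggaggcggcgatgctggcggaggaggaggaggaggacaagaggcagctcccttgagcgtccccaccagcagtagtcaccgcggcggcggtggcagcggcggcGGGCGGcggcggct
PDE4A, chr19:10416523-10416822: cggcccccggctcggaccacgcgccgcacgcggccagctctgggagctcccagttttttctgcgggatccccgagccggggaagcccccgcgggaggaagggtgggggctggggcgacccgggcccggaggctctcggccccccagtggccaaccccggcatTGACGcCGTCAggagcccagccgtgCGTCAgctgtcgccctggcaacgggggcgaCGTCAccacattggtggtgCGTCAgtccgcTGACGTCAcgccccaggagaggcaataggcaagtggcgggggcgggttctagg

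Windows on chromosome 8, which holds PDE7A, were left out of the search. Among the windows kept, 8 of the 10 genes had at least 1, with 34 windows in all. The full element TGACGTCA was in 1 of these 34 windows, the PDE4A window above. It was in 1.85% of the 35116 windows searched, which cover all genes outside chromosome 8 that have a window. The core motif TGACG was in 3 of the 34 windows, against 24.6% of all windows, and neither PDE10A window held it. The NF-κB motif was in 3 of the 34 windows and in neither PDE10A window, against 11.3% of all windows, and GGGCGG was in 17 of 34, both PDE10A windows among them, against 45.0% of all windows. Both strands were searched, and every full element also counts as a core motif. A match is a description of these letters only.

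PDE10A, a hydrolase of both cyclic nucleotides, had 72, 11 and 151 counts in the overexpressing libraries (replicates 1 to 3) and 733, 1147 and 1039 counts in the wild type libraries. Scaled, these were 5.29, 0.423 and 6.04 CPM in overexpressing cells, against 38.9, 37.9 and 39.0 CPM in wild type cells. The wild type libraries lay within about 1 CPM of each other, all overexpressing libraries lay far below them, and replicate 2 lay far below the other overexpressing libraries. The mean was 3.92 ± 3.05 CPM in overexpressing cells and 38.6 ± 0.580 CPM in wild type cells (SD, n = 3 each), and the log2 fold change of overexpressing over wild type cells was -3.34 (SE 0.58).

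Relative to the wild type mean, 13.7%, 1.10% and 15.7% of PDE10A transcript was counted in overexpressing replicates 1, 2 and 3. The 11 counts of replicate 2 correspond to an exact Poisson 95% interval of 0.211 to 0.756 CPM, which lies below the intervals of 4.14 to 6.66 CPM in replicate 1 and 5.12 to 7.09 CPM in replicate 3. The spread among overexpressing libraries was thus larger than counting error, which is the only error these intervals cover. Without replicate 2 the overexpressing mean was 14.7% of the wild type mean, and with it 10.1%. The log2 fold change was -2.75 without overexpressing replicate 2, -3.97 without overexpressing replicate 3 and -3.58 without replicate 1 of both groups. In bulk RNA, a lower level in every cell and fewer cells that hold the transcript cannot be told apart.

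None of the other genes that GENCODE release 29 places across the PDE10A locus held counts in the table. Coordinates were at hand for 56591 of the 64253 genes in the table, and where the rest lie is not known. Of 5 genes that overlap it in GENCODE release 29, 4 were in the count table, and all 4 had 0 counts in every library. The current RefSeq table lists LINC00473, a cyclic AMP-responsive long non-coding RNA, as a synonym of PDE10A. The annotation release behind the counts is not stated in any source used here, which means that whether transcripts of that name entered the PDE10A count is not known. The 50 nearest tested genes on chromosome 6 had a median log2 fold change of -0.18, and with this median as an offset the log2 fold change of PDE10A was -3.16.

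**Figure D1:**
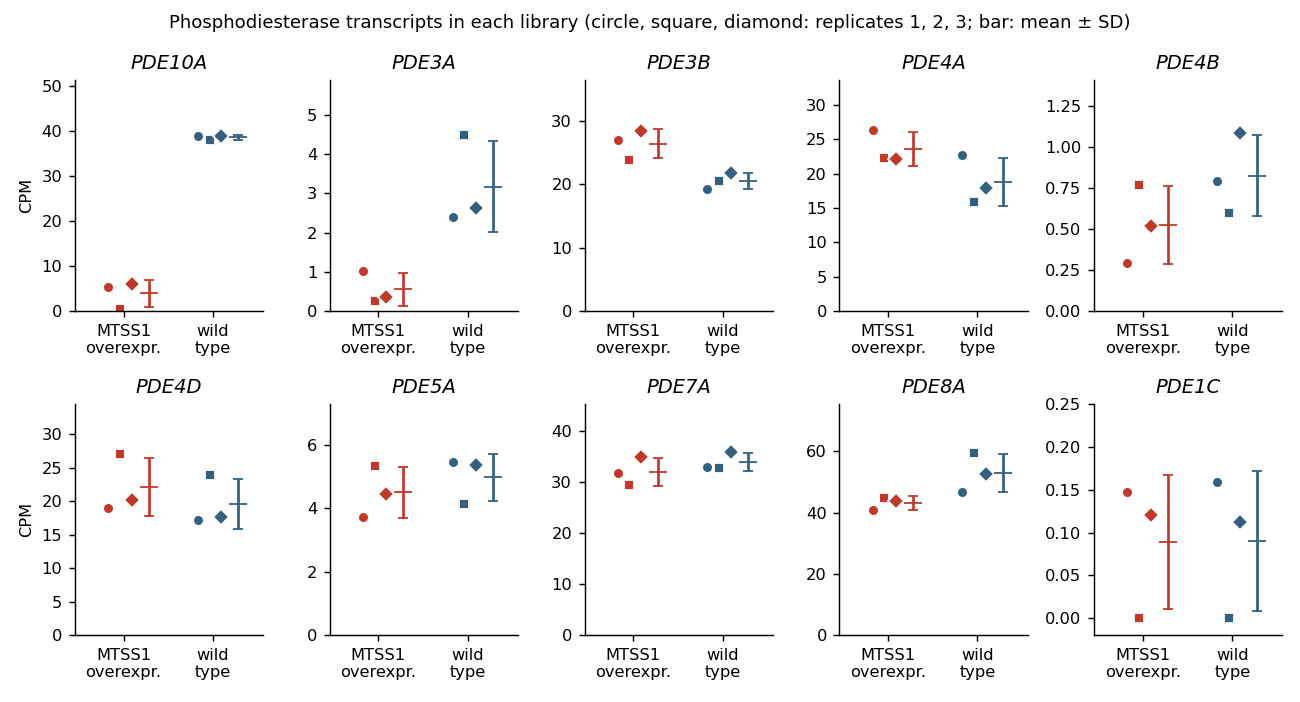
CPM of the 10 phosphodiesterase genes in each library (linear axes, 1 panel per gene), MTSS1-overexpressing libraries in red on the left and wild type libraries in blue on the right, with mean ± SD (n = 3) beside the points. PDE10A lies between 0.423 and 6.04 CPM in overexpressing cells and between 37.9 and 39.0 CPM in wild type cells, while most other panels show groups that overlap or nearly meet.

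PDE3A, the cyclic GMP-inhibited enzyme of heart, platelets and smooth muscle (ENSG00000172572, chromosome 12, 20369245 to 20684381, plus strand), was the other gene of the list with a large difference. It had 1.03, 0.269 and 0.360 CPM in overexpressing libraries, against 2.39, 4.50 and 2.63 CPM in wild type libraries. The groups did not overlap, and all values were low, from 7 to 14 counts in overexpressing and from 45 to 136 counts in wild type libraries. The mean was 0.552 ± 0.414 CPM in overexpressing cells and 3.17 ± 1.16 CPM in wild type cells (SD, n = 3 each; log2 fold change -2.64, SE 0.51). A processed pseudogene inside the PDE3A locus on the same strand, AC112777.1, had 581 counts over the overexpressing and 606 over the wild type libraries, where PDE3A itself had 30 and 251. How far reads of the pseudogene and of PDE3A mix was not tested. The 50 nearest tested genes had a median log2 fold change of 0.01.

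PDE3B, the paralog of PDE3A that acts in fat and liver cells downstream of insulin (ENSG00000152270, chromosome 11, 14643723 to 14872044), did not follow PDE3A. It had 26.9, 23.8 and 28.4 CPM in overexpressing libraries, against 19.2, 20.5 and 21.7 CPM in wild type libraries. Every overexpressing library was above every wild type library, by a small margin. The means were 26.4 ± 2.32 and 20.5 ± 1.27 CPM in overexpressing and wild type cells (SD, n = 3 each; log2 fold change 0.36).

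The 3 listed PDE4 enzymes, which are specific for cyclic AMP and sensitive to rolipram, had groups that overlapped. PDE4A (chromosome 19, 10416773 to 10469631) had 26.4, 22.2 and 22.1 CPM in overexpressing libraries, against 22.6, 15.8 and 17.9 CPM in wild type libraries, a log2 fold change of 0.33. PDE4D, which has many isoforms from separate promoters (chromosome 5, 58969038 to 60522120), had 19.0, 27.0 and 20.1 CPM in overexpressing libraries, against 17.2, 23.9 and 17.6 CPM in wild type libraries, a log2 fold change of 0.17. For PDE4D, replicate 2 was the highest library of each group. PDE4B (chromosome 1, 65792514 to 66374579) was scarce, at 0.294, 0.769 and 0.520 CPM in overexpressing libraries, against 0.795, 0.595 and 1.09 CPM in wild type libraries. Its log2 fold change was -0.59, from 37 pooled counts in overexpressing and 62 in wild type cells. CDC37, on the strand opposite to PDE4A and overlapping it, had 17061 counts in overexpressing and 17376 in wild type libraries, and with the strand setting of the counting not given, reads in the shared stretch cannot be told apart.

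PDE8A and PDE7A, which hydrolyse cyclic AMP at low concentrations and are not blocked by rolipram differed little between the groups. PDE8A (ENSG00000073417, chromosome 15, 84980440 to 85139145) had 40.7, 44.7 and 43.9 CPM in overexpressing libraries, against 46.8, 59.3 and 52.7 CPM in wild type libraries. The groups did not overlap, and the log2 fold change was -0.30. The 50 nearest tested genes on chromosome 15 had a median log2 fold change of -0.41, lower than that of PDE8A, and with this median as an offset the log2 fold change of PDE8A was 0.12. PDE7A (chromosome 8) had 31.7, 29.4 and 34.9 CPM in overexpressing libraries, against 32.9, 32.7 and 35.9 CPM in wild type libraries. Its groups overlapped, and its log2 fold change was -0.08. MTFR1, which overlaps PDE7A on the opposite strand, had 10706 counts in overexpressing and 11967 in wild type libraries.

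PDE5A, the cyclic GMP-specific target of sildenafil (chromosome 4, 119494395 to 119628991), had 3.75, 5.34 and 4.44 CPM in overexpressing libraries, against 5.46, 4.13 and 5.37 CPM in wild type libraries. These ranges overlapped, and the log2 fold change was -0.13. PDE1C, an enzyme activated by calcium and calmodulin, was almost absent from the counts, with 2, 0 and 3 counts in overexpressing and 3, 0 and 3 counts in wild type libraries. It was the 1 gene of the 10 that had too few counts to enter the fit.

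Of the 9 genes in the fit, 2 passed an adjusted p of 0.05 in edgeR's quasi-likelihood test, PDE10A and PDE3A, both lower in overexpressing cells. Of all 16091 genes tested, 4.28% passed in either direction, 2.45% lower and 1.82% higher. The groups did not overlap for 4 of the 9 genes, PDE10A, PDE3A and PDE8A lower and PDE3B higher, while 25.5% of all tested genes had groups that do not overlap (13.5% lower and 12.1% higher). Since this contrast chose PDE10A and the list was made with it known, nothing is read from either count. The median log2 fold change was -0.13 over the 9 genes and 0.00 over all tested genes. The 2 calls did not hold in every fit with libraries left out. Both genes passed without overexpressing replicate 1 and without wild type replicate 1. PDE10A alone passed without overexpressing replicate 2 or 3, and PDE3A alone passed without replicate 1 of both groups. Neither passed without wild type replicate 2 or without wild type replicate 3. In these 2 fits the log2 fold change was -3.36 and -3.33 for PDE10A and -2.28 and -2.75 for PDE3A. Of all tested genes, 346 and 145 passed there, against 688 with all 6 libraries.

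**Figure D2:**
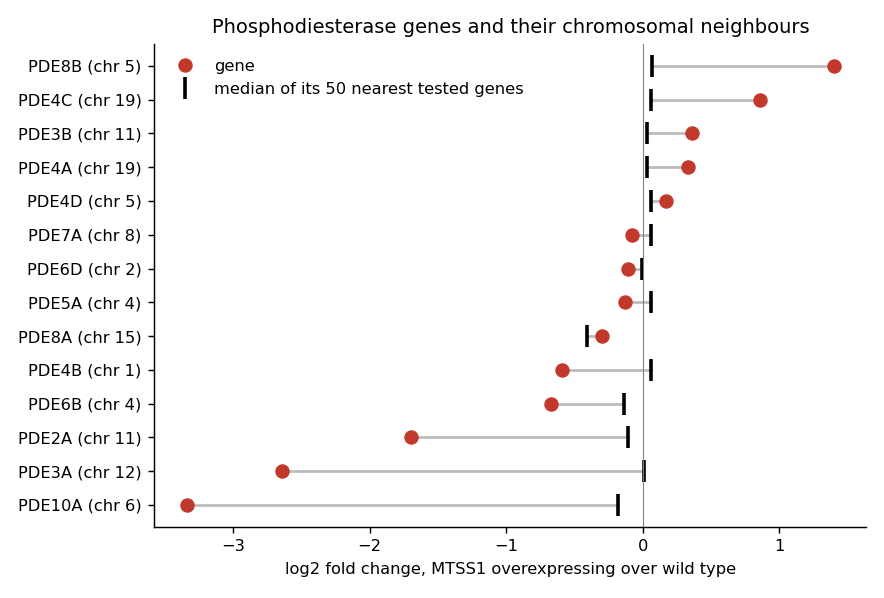
Log2 fold change (overexpressing over wild type) of the 14 phosphodiesterase genes in the fit, red points, beside the median of the 50 nearest tested genes on the same chromosome, black ticks. PDE10A at -3.34 and PDE3A at -2.64 lie far from their neighbours' medians of -0.18 and 0.01, whereas PDE8A at -0.30 lies next to its neighbours' median of -0.41.

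Levels of different genes were compared as CPM per kb of the union of annotated exons. In overexpressing cells the order was PDE8A (5.47 ± 0.272 CPM per kb), PDE7A (4.31 ± 0.369), PDE4A (3.54 ± 0.368), PDE3B (2.25 ± 0.198), PDE4D (1.35 ± 0.266), PDE5A (0.461 ± 0.0819), PDE10A (0.178 ± 0.139), PDE3A (0.0658 ± 0.0494), PDE4B (0.0610 ± 0.0275) and PDE1C (0.00644 ± 0.00566; SD, n = 3 for each). In wild type cells PDE10A stood at 1.75 ± 0.0263 CPM per kb, behind PDE8A (6.71 ± 0.794), PDE7A (4.56 ± 0.236) and PDE4A (2.83 ± 0.525) and level with PDE3B (1.75 ± 0.108). PDE4D (1.20 ± 0.228), PDE5A (0.510 ± 0.0758), PDE3A (0.378 ± 0.138), PDE4B (0.0956 ± 0.0287) and PDE1C (0.00655 ± 0.00592) followed there. PDE10A was thus 7th of the 10 in overexpressing cells and 4th in wild type cells. Neighbours whose library ranges overlapped were PDE7A and PDE4A, PDE10A and PDE3A, and PDE3A and PDE4B in overexpressing cells, and PDE10A and PDE3B and also PDE5A and PDE3A in wild type cells. The annotated exons of PDE10A sum to 22022 bp while its longest transcript has 8652 bp, and with the longest transcript as the length PDE10A was again 7th in overexpressing cells and 3rd in wild type cells.

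Summed over the 21 genes that encode catalytic subunits, the level was 18.8, 19.3 and 19.2 CPM per kb in overexpressing libraries, against 20.5, 22.0 and 20.9 CPM per kb in wild type libraries. The groups did not overlap. Without PDE10A the sums were 18.6, 19.3 and 18.9 CPM per kb in overexpressing and 18.7, 20.3 and 19.1 CPM per kb in wild type libraries, and these did overlap. PDE10A made up 0.936 ± 0.728% of the sum in overexpressing cells and 8.32 ± 0.425% in wild type cells (SD, n = 3 each). These shares and sums, and the sums by substrate below, rest on the exon union as the length. With the longest transcript PDE10A stood at 0.453 ± 0.353 CPM per kb in overexpressing and 4.46 ± 0.067 CPM per kb in wild type cells. Shares and sums by that length were not computed.

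By substrate, the 8 genes specific for cyclic AMP summed to 15.6 ± 0.445 CPM per kb in overexpressing and 15.8 ± 0.546 CPM per kb in wild type cells, a difference within the spread of the libraries. The 8 genes that act on both nucleotides summed to 2.64 ± 0.334 CPM per kb in overexpressing and 4.18 ± 0.158 CPM per kb in wild type cells (SD, n = 3 each). The other 7 genes of the class, without PDE10A, summed to 2.46 ± 0.196 CPM per kb in overexpressing and 2.42 ± 0.181 CPM per kb in wild type cells. Within these 7, PDE3A (0.0658 and 0.378 CPM per kb in overexpressing and wild type cells) and PDE2A (0.0854 and 0.284) were lower in overexpressing cells. PDE3B (2.25 and 1.75) was higher there, and the rest averaged at most 0.0479 CPM per kb in either group. The 5 genes specific for cyclic GMP summed to 0.845 ± 0.0886 and 1.12 ± 0.149 CPM per kb in overexpressing and wild type cells. Enzyme activity and cyclic nucleotide levels were not measured.

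**Figure D3:**
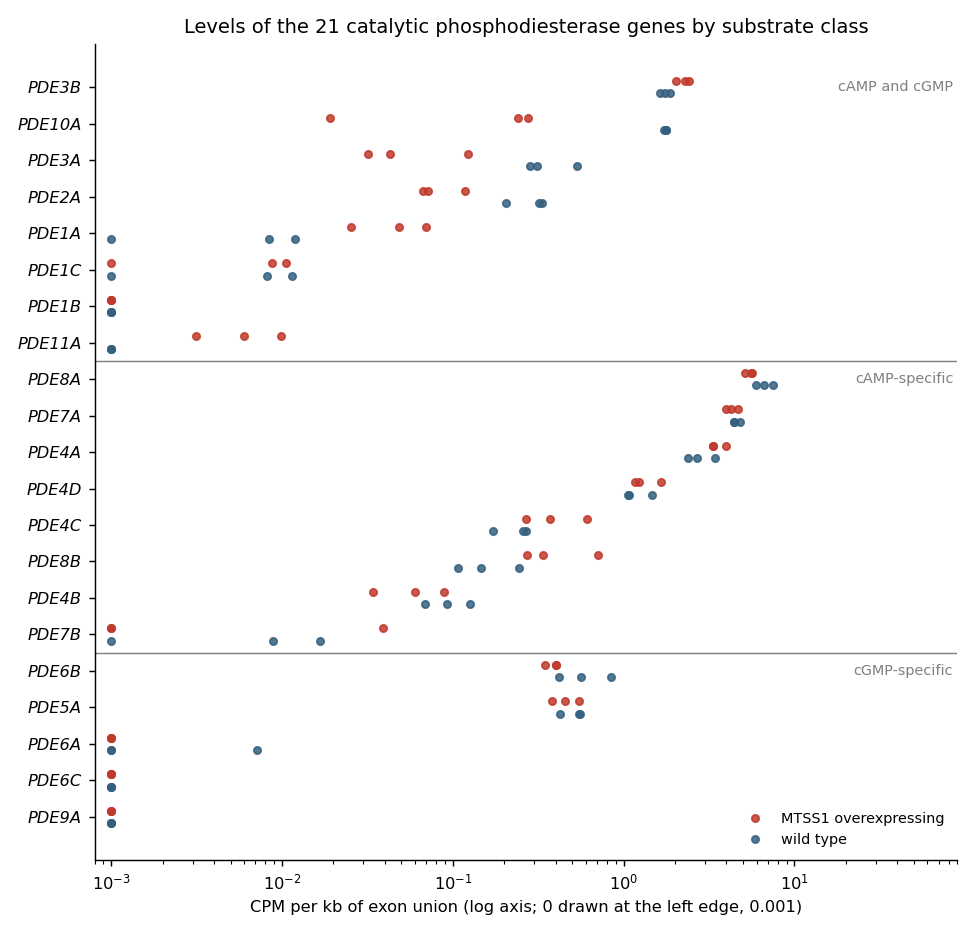
CPM per kb of exon union (log axis) of the 21 catalytic phosphodiesterase genes, grouped by substrate, with MTSS1-overexpressing libraries as red points above wild type libraries as blue points, and values of 0 drawn at 0.001. PDE10A spans 0.0192 to 0.274 CPM per kb in overexpressing cells and 1.72 to 1.77 CPM per kb in wild type cells, while PDE8A, PDE7A and PDE4A stay at the top in both groups.

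**Figure D4:**
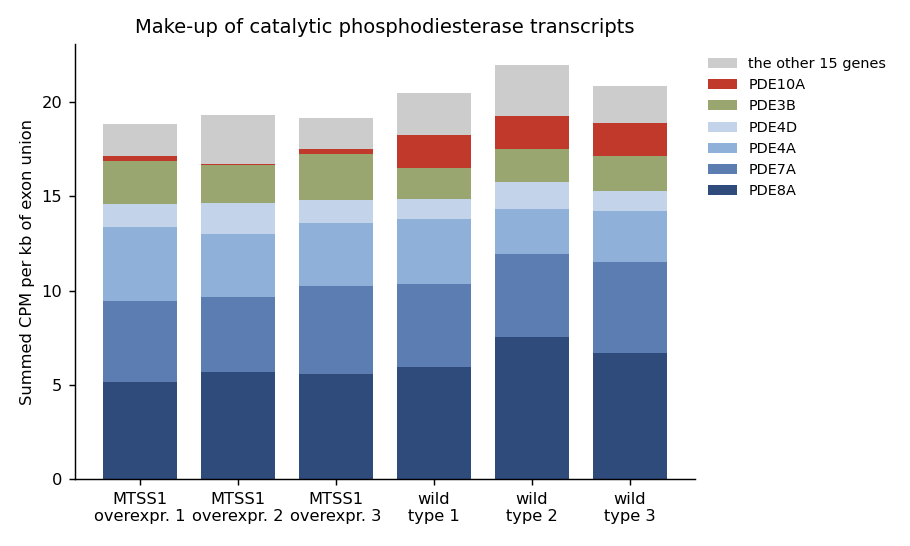
Stacked bars of CPM per kb of exon union in each library, the 3 MTSS1-overexpressing libraries left of the 3 wild type libraries, for the 6 genes with the highest levels in wild type cells and the sum of the other 15 catalytic genes. The red PDE10A segment makes up 0.0995% to 1.43% of the bars in overexpressing cells and 7.83% to 8.63% in wild type cells, and the PDE8A segment is the largest in all 6 bars.

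Of the 14 family genes outside the list, 5 had enough counts to be tested, and 1 of them, PDE2A, passed. PDE2A, which cyclic GMP stimulates to hydrolyse cyclic AMP, had 0.514, 0.846 and 0.480 CPM in overexpressing libraries, against 2.28, 2.38 and 1.46 CPM in wild type libraries (log2 fold change -1.70 with SE 0.39 and, in edgeR, adjusted p = 0.043). The groups did not overlap, but the call was lost without any 1 of the 6 libraries (adjusted p up to 0.14 in edgeR) and also under the neighbour offset (adjusted p = 0.081 in edgeR). The log2 fold change of PDE2A stayed at -2.03 to -1.54 with 1 library left out and at -1.60 under the offset. With a block that pairs libraries of neighbouring title numbers, it was -1.70 (edgeR, adjusted p = 0.0055).

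PDE8B, the paralog of PDE8A, had 2.35, 4.92 and 1.88 CPM in overexpressing libraries, against 0.742, 1.69 and 1.01 CPM in wild type libraries, and did not pass (log2 fold change 1.40, edgeR adjusted p = 0.12), although DESeq2 called it and it passed with the block (log2 fold change 1.36, edgeR adjusted p = 0.0065). PDE4C had 2.73 ± 1.15 and 1.53 ± 0.347 CPM in overexpressing and wild type cells (log2 fold change 0.86, edgeR adjusted p = 0.23). In both genes replicate 2 was the highest library of each group. PDE6B, a rod photoreceptor subunit, had 1.95 ± 0.165 CPM in overexpressing and 3.10 ± 1.10 CPM in wild type cells (edgeR, adjusted p = 0.27). PDE6D, a chaperone of prenylated proteins, had 21.1 ± 0.768 CPM in overexpressing and 22.7 ± 2.27 CPM in wild type cells (SD, n = 3 each; edgeR, adjusted p = 0.69).

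The other 9 had few or no counts. PDE1A had 18 counts over the overexpressing and 3 over the wild type libraries, a ratio of 7.03 with an exact 95% interval of 2.05 to 37.3 that covers counting error only. PDE7B had 6 counts in overexpressing and 4 in wild type cells, PDE11A had 5 in overexpressing and 0 in wild type cells, PDE6A, PDE6G and PDE6H had 1 count each, all in wild type cells, and PDE1B, PDE6C and PDE9A were listed at 0 in all 6 libraries.

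Among 10267 protein-coding genes that averaged 5 CPM or more, the profile over the 6 libraries that lay nearest to that of PDE10A was that of CYP24A1, the enzyme that inactivates vitamin D. Nearness is the root mean square difference of log2 CPM after each gene's mean is removed, and it was 0.38 for CYP24A1. NTSR1, a neurotensin receptor, followed at 0.55, NEXMIF at 1.05, ICAM1, a leukocyte adhesion receptor, at 1.29 and CCND2, a cyclin, at 1.30. CYP24A1 had 0.881, 0.0384 and 2.20 CPM in overexpressing libraries and 11.6, 6.58 and 8.93 CPM in wild type libraries, and like PDE10A it was lowest in overexpressing replicate 2. NTSR1, ICAM1, NEXMIF and CCND2 were also lowest there. The 5 genes were picked for their nearness to the PDE10A profile, which includes that low library, so nothing is read from this. PDE3A, too scarce for this comparison, stood at 1.22, and the other 7 phosphodiesterase genes of the list in the fit stood between 2.17 and 2.44.

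Other genes of cyclic nucleotide signalling were taken from lists of the pathway. These were G proteins and Gs-coupled receptors, cyclases, effectors, kinase anchoring proteins, the CREB family and its coactivators, CREB target genes and exporters. Of 95 such genes 72 were tested, and 5 passed, 3 higher and 2 lower, which is 6.94% against 4.28% of all tested genes, with a median log2 fold change of 0.03. The lists were chosen with earlier results of these data known, so nothing is read from this share. Upstream of the cyclases, VIPR1, the Gs-coupled receptor of vasoactive intestinal peptide, fell to 6.68, 8.46 and 9.65 CPM in overexpressing libraries, against 30.4, 41.5 and 29.02 CPM in wild type libraries (log2 fold change -2.01 with SE 0.18 and, in edgeR, adjusted p = 0.0014). GNAO1, the alpha subunit of the inhibitory G protein Go, rose to 6.76, 9.95 and 7.32 CPM in overexpressing libraries, against 2.60, 1.49 and 2.63 CPM in wild type libraries (log2 fold change 1.85 with SE 0.27 and, in edgeR, adjusted p = 0.0085). Both kept their calls without any 1 library and with the neighbour offset. The other 11 tested genes of this list of G proteins and Gs-coupled receptors did not pass without the block.

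Of 10 adenylyl and guanylyl cyclases, 0 passed in edgeR and 0 in DESeq2, with 2 under an unadjusted p of 0.05 in edgeR. With the block of neighbouring title numbers 1 passed, ADCY3 (edgeR, adjusted p = 0.0079). That block raised the calls among all 16091 tested genes from 688 to 3651, and list counts with it stand beside that share. ADCY3 had 85.8 ± 8.86 CPM in overexpressing and 70.7 ± 3.27 CPM in wild type cells (edgeR adjusted p = 0.13), and GUCY1B1, a subunit of the nitric oxide receptor, had 6.70 ± 0.758 and 4.86 ± 0.383 CPM in overexpressing and wild type cells (edgeR adjusted p = 0.18; SD, n = 3 each). Of 15 effectors and kinase inhibitors, 0 passed in either tool and 5 were under an unadjusted p of 0.05 in edgeR, with the lowest adjusted p for the cyclic AMP-activated exchange factor RAPGEF4, at 6.43 ± 0.768 CPM in overexpressing and 3.90 ± 0.282 CPM in wild type cells (edgeR adjusted p = 0.064), and for the protein kinase A inhibitor PKIB, at 54.0 ± 4.68 CPM in overexpressing and 67.2 ± 3.19 CPM in wild type cells (edgeR adjusted p = 0.093). With the block 5 of the effectors passed, RAPGEF4 (edgeR, adjusted p = 0.0094), PKIB (edgeR, adjusted p = 0.0030), PKIA, PRKACB and PRKAR2B. The exporters ABCC4 and ABCC5 passed in neither tool nor at an unadjusted p of 0.05 and had log2 fold changes of -0.11 and 0.05 (edgeR adjusted p = 0.58 and 0.76).

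Of 13 tested proteins that anchor protein kinase A, often together with a phosphodiesterase, 3 passed in edgeR, against 4.28% of all tested genes, and 6 had an unadjusted p under 0.05. DESeq2 called 4, the same 3 and PDE4DIP, which has near-identical copies that make its counts uncertain (log2 fold change 0.87, edgeR adjusted p = 0.062). With the block 6 passed, PDE4DIP, AKAP9 and AKAP11 besides these 3, against 3651 of all 16091 tested genes. AKAP12, also called gravin, fell to 598, 633 and 671 CPM in overexpressing libraries, against 980, 1010 and 1062 CPM in wild type libraries (log2 fold change -0.68 with SE 0.082 and, in edgeR, adjusted p = 0.0036). It kept that call without any 1 library. Its neighbours on chromosome 6 had a median of -0.24, and with that offset it still passed (log2 fold change -0.44, adjusted p = 0.030 in edgeR). AKAP6, an anchor at the nuclear envelope of muscle cells that binds PDE4D, had 10.6, 14.0 and 11.2 CPM in overexpressing libraries, against 6.20, 7.97 and 6.08 CPM in wild type libraries. AKAP1, an anchor at mitochondria, had 81.4, 82.9 and 86.1 CPM in overexpressing libraries, against 66.6, 56.8 and 65.8 CPM in wild type libraries. Both rose, by 0.82 and 0.41 on the log2 scale, with an edgeR adjusted p of 0.035 each. Under the neighbour offset their edgeR adjusted p-values were 0.19 and 0.22, so neither passed. Without 1 library, AKAP6 passed in 1 of the 6 fits, the one without wild type replicate 2, and AKAP1 in 0 of them (highest edgeR adjusted p 0.13 and 0.12).

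Of the 8 genes of the CREB family and its coactivators, 0 passed in edgeR or DESeq2, and 2 were under an unadjusted p of 0.05 in edgeR: the log2 fold change was 0.39 for the cyclic AMP response modulator CREM and -0.33 for the coactivator CRTC3 (edgeR, adjusted p = 0.19 and 0.13). With the block both passed (edgeR, adjusted p = 0.049 and 0.022), as did 3651 of all 16091 tested genes. CRTC3 lies on chromosome 15 among neighbours with a median of -0.32. Of 11 tested CREB target genes, 0 passed in edgeR or DESeq2 and 0 had an unadjusted p under 0.05 in edgeR, with the lowest adjusted p for PER1 (log2 fold change 0.29, edgeR adjusted p = 0.28) and NR4A1 (0.46, edgeR adjusted p = 0.30). With the block these 2 target genes passed (edgeR, adjusted p = 0.024 and 0.030). SIK1, PCK1 and SST were listed at 0 in all libraries, and a listed 0 cannot be read as absence of the transcript.

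**Figure D5:**
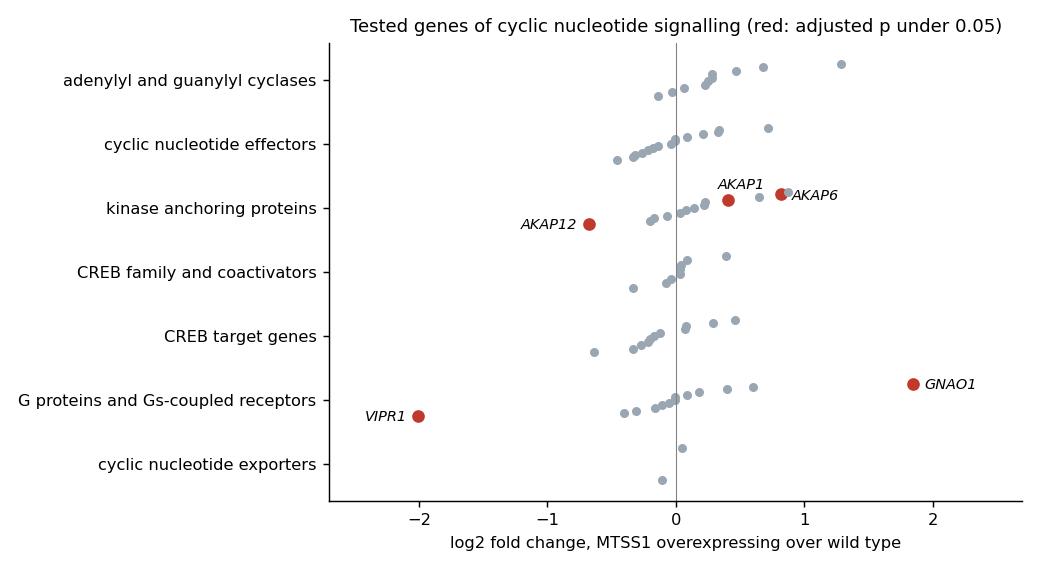
Log2 fold change (MTSS1-overexpressing over wild type, n = 3 each) of the 72 tested genes of cyclic nucleotide signalling outside the phosphodiesterases, 1 row of points per list, red where the edgeR adjusted p is under 0.05. VIPR1 at -2.01 and GNAO1 at 1.85 are the outermost points, and the other 3 red points are AKAP12, AKAP1 and AKAP6.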

How the data were processed

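Raw read counts per Ensembl gene were deposited by the authors in 1 table; per the submitters' processing notes bcl2fastq, HISAT2 2.1.0, HTSeq and GRCh38 were used, while no source used here gives the annotation release or strand setting. Groups follow the labels, and replicate numbers follow accession order. Counts were scaled with TMM, filtered with filterByExpr and tested two-sided with edgeR 4.0.16 (quasi-likelihood, R 4.3.3; Benjamini-Hochberg over 16091 genes, threshold 0.05); an edgeR adjusted p is from this fit, and the SE of a log2 fold change is its size divided by the square root of F. With 3 libraries per group, p-values reflect the spread of these libraries alone, which may be technical. Coordinates, exon lengths and neighbours came from GENCODE release 29 (GRCh38). The neighbour offset enters the median log2 fold change of the 50 nearest tested genes as an offset. Profiles used log2 CPM with a prior count of 2. The genes, lists and tests were chosen with earlier results of these data known. Named are the 10 genes, the tested genes of the rest of the family, list genes past the threshold (otherwise the 2 lowest adjusted p), the 5 nearest profiles and MTSS1; other names were added after values were seen. The scripts were tested on simulated data. Replicates differed beyond sampling noise (chi-square divided by its degrees of freedom, 14.7 to 28.0). DESeq2 1.42.0, RLE scaling, no filter, a block, the offset and left-out libraries were alternatives.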

Additional observations from a re-analysis of the deposited data

How the results depend on the processing

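The log2 fold change of PDE10A kept its sign under every alternative run (-3.97 to -2.75 with 1 library left out). The number of all genes that passed, 688, was 684 with RLE scaling, 1489 without the low-count filter, 1188 with DESeq2, 132 without replicate 1 of both groups and 145 to 346 with 1 library left out. The number of listed phosphodiesterase genes that passed, 2, was 1 without replicate 1 of both groups and 0 to 2 with 1 library left out. For the rest of the family, 1 became 2 without the filter and with DESeq2 (PDE8B was added), 0 with the neighbour offset, 0 without replicate 1 of both groups and 0 with any 1 library left out. For the pathway lists, 5 became 7 without the filter (PDE4DIP and PRKACB were added) and 6 with DESeq2 (PDE4DIP was added). The count was 3 with the neighbour offset, 3 without replicate 1 of both groups and 3 to 5 with 1 library left out. The cause was not tested, beyond the fewer libraries in the fits that leave some out. ABCC5 turned to -0.08 with the neighbour offset, and PDE10A was 3rd in wild type cells by longest transcript.

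The labels give no replicate numbers, but library titles hold neighbouring numbers, 1 of each group per pair. Deviations from group means correlated at 0.66, 0.34 and 0.38 within these pairs and at -0.41 to 0.10 between others, and each library correlated best with its own neighbour, a hint from the data and not from the design. The deviations of a group cancel out over its libraries, so these correlations are not independent, and the contrast with other pairs is partly built in. With the pairs as a replicate block, 3651 of all 16091 tested genes passed. Among them were 5 of the listed phosphodiesterase genes (PDE3B, PDE4A and PDE8A were added), 2 of the rest of the family and 20 of the pathway lists. The lists of cyclases, effectors, CREB family and CREB targets had 0 passing in the edgeR fit of all 6 libraries with the filter and no block. They had 1, 5, 2 and 2 with the block. Without the block, the effector PRKACB passed in the fit without the filter, and PKIA in the fit without wild type replicate 2. Few counts stand behind each library for PDE1C, PDE4B and PDE3A among the listed genes and for most of the rest of the family, which limits what can be seen of them.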
